A study of Mus musculus with 11 samples.

Results

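The 5 libraries described here, of 11 in the study, are those labelled L cells: 3 libraries from mice given estradiol benzoate (EB) and 2 from mice given its vehicle. They were taken by that label and by the treatment named in each library's title. EB is an ester that releases the estrogen estradiol, and the vehicle was sesame oil. All donors, EB and vehicle alike, were ovariectomised C57BL/6 females aged 10 to 14 weeks that carried Cck-Cre and the Cre-dependent reporter R26LSL-tdTomato, so no group with intact ovaries is among them. Cells were isolated from the colon 4 hours after treatment, about 7000 per treatment group. The other 6 libraries of the study are labelled enterochromaffin (EC) cells and come from a line called ECFLTG. Their donors were also aged 10 to 14 weeks. The EC input is given as at least 500 cells per sample, not per treatment group. Cck-Cre labels cells in which the cholecystokinin promoter is or has been active, which in the gut includes enteroendocrine cells of several kinds. Each L-cell library held from 27658579 to 31449447 reads counted on genes, and values are normalised counts, that is, reads divided by a size factor of the library. Whether the replicates are different mice is not in the labels, so the p-values below reflect the spread among these libraries and that spread may be technical.

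L cells are hormone-secreting cells of the gut lining that sense nutrients, bile acids and bacterial metabolites in the lumen. In the colon they make peptide YY (Pyy), the proglucagon from which glucagon-like peptides are cut (Gcg), and insulin-like peptide 5 (Insl5). Granins and prohormone convertases pack and cut these peptides in dense-core vesicles, which fuse with the membrane when calcium enters. Estradiol acts through the nuclear receptors encoded by Esr1 and Esr2 and through the membrane receptor encoded by Gper1.

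All 3 defining L-cell transcripts were read in every library, but they made up little of the RNA. As a share of all normalised counts, the L-cell hormone list (7 genes) took 0.0659, 0.196 and 0.318% in the EB libraries, against 0.0486 and 0.0179% in the vehicle libraries. The colonocyte marker list (20 genes of the absorptive epithelium) took 6.37, 6.43 and 6.13% in the EB libraries, against 9.08 and 8.01% in the vehicle libraries. The values below therefore need not come from L cells alone, and L-cell library is used here as the label of the sample. In bulk libraries such as these, fewer cells of a type and less RNA per cell cannot be told apart.

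The comparison asked how the transcripts of L-cell libraries stood 4 hours after EB. A gene was tested where its value reached 10 in 2 or more libraries. Of 16217 such genes, 4 differed between EB and vehicle at an adjusted p under 0.05, 0.0247% of those tested, 2 on each side (0.0123% higher and 0.0123% lower). The test was limma on log2(value + 1) with Benjamini-Hochberg adjustment, and fold changes on that scale understate the change of low genes. Trf and B3gnt5 rose, and Reg3b and Reg3g fell. Reg3b and Reg3g encode secreted C-type lectins acting on bacteria. Both lie on mouse chromosome 6, with Reg3a, Reg2 and Reg1 between them. Because Reg3b and Reg3g fell together, the 250 bases before the start site of each are shown, from RefSeq for GRCm38.p6. Matches to the searched motifs are in capitals. Reg3b lies on the plus strand (chr6:78370635-78370884) and Reg3g on the minus strand (chr6:78468875-78469124).
Reg3b: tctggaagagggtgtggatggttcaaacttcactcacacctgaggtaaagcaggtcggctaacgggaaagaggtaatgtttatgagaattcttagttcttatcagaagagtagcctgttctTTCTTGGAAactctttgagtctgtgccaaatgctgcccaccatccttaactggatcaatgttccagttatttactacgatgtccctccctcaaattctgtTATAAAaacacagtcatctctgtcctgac
Reg3g: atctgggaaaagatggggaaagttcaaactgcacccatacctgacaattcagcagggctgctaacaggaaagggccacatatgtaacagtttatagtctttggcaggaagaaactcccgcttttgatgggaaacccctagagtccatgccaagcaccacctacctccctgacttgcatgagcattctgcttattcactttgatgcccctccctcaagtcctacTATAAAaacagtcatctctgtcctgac
The motifs searched were the consensus estrogen response element (inverted GGTCA and TGACC with 3 free bases between them), its single arm AGGTCA, which can overlap it, the STAT motif TTCNNNGAA, and TATAAA, the first 3 on both strands and TATAAA on the gene's strand. In the gut interleukin-22 induces both genes through STAT3, and the STAT motif was searched for that reason. Both windows held TATAAA, at -29 to -24 in Reg3b and at -27 to -22 in Reg3g, counted back from the start site. Reg3b also held TTCNNNGAA at -129 to -121, and Reg3g had no match to it. Neither window matched an estrogen motif. Of 32851 promoter windows of this length, 7.59% held TATAAA, 7.02% TTCNNNGAA, 14.0% AGGTCA and 0.0639% the full element. A match describes these letters only. The 2 windows were identical at 173 of 253 aligned columns, 68.4%. Of the 4 genes, 3 had an entry among the promoter sequences. The B3gnt5 window matched none of the motifs, and Trf had no entry.

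Reg3b had 29528, 21047 and 23118 normalised counts with EB and 92836 and 134159 with vehicle. Its highest EB library lay below the lower vehicle library by a wide margin, and the log2 fold change was -2.20 ± 0.21 (SE), with an adjusted p of 0.0404 by limma. Reg3g, the partner lectin, had 5235, 3795 and 3143 in the EB libraries, against 22972 and 43744 in the vehicle libraries. Every EB library again lay far below both vehicle libraries, with a log2 fold change of -2.998 ± 0.30 and the same adjusted p of 0.0404 by limma. The transcripts of Reg3b and Reg3g shared 0 windows of 50 bases, and neither shared one with Reg3a.

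Trf, on chromosome 9, 103208876 to 103230286 (GRCm38), encodes transferrin, the iron carrier of plasma. Its values were 436, 687 and 472 with EB, against 77.7 and 78.5 with vehicle. The vehicle libraries were almost equal and far below every EB library, and the log2 fold change was 2.72 ± 0.27 (adjusted p 0.0404, limma). An exon of Trf overlaps the predicted gene Gm20425 on the same strand, and reads of the 2 cannot be told apart here. B3gnt5, on chromosome 16, 19760192 to 19772760, encodes the glycosyltransferase that starts lacto-series glycolipids. It had 1056, 1207 and 974 normalised counts with EB and 139 and 239.8 with vehicle. The groups were again wide apart, with a log2 fold change of 2.55 ± 0.25 (adjusted p 0.0404, limma).

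The calls of these 4 genes rested on having all 3 EB libraries. With any 1 EB replicate left out, none of them was called by limma, with adjusted p between 0.0929 and 0.1295 without EB replicate 1, of 0.400 without EB replicate 2, and between 0.276 and 0.298 without EB replicate 3. Their fold changes moved little in those fits: Trf ran from 2.52 to 2.85 and Reg3g from -3.20 to -2.83 on the log2 scale. With either vehicle replicate left out, all 4 were called, with adjusted p from 0.00462 to 0.0305 by limma, where the lone vehicle library is assumed to vary as the EB libraries do. By edgeR on the recovered reads none of the 4 passed, with adjusted p from 0.0976 to 0.102. By DESeq2 all 4 passed, with adjusted p of 2.84e-15 or less.

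**Figure D1:**
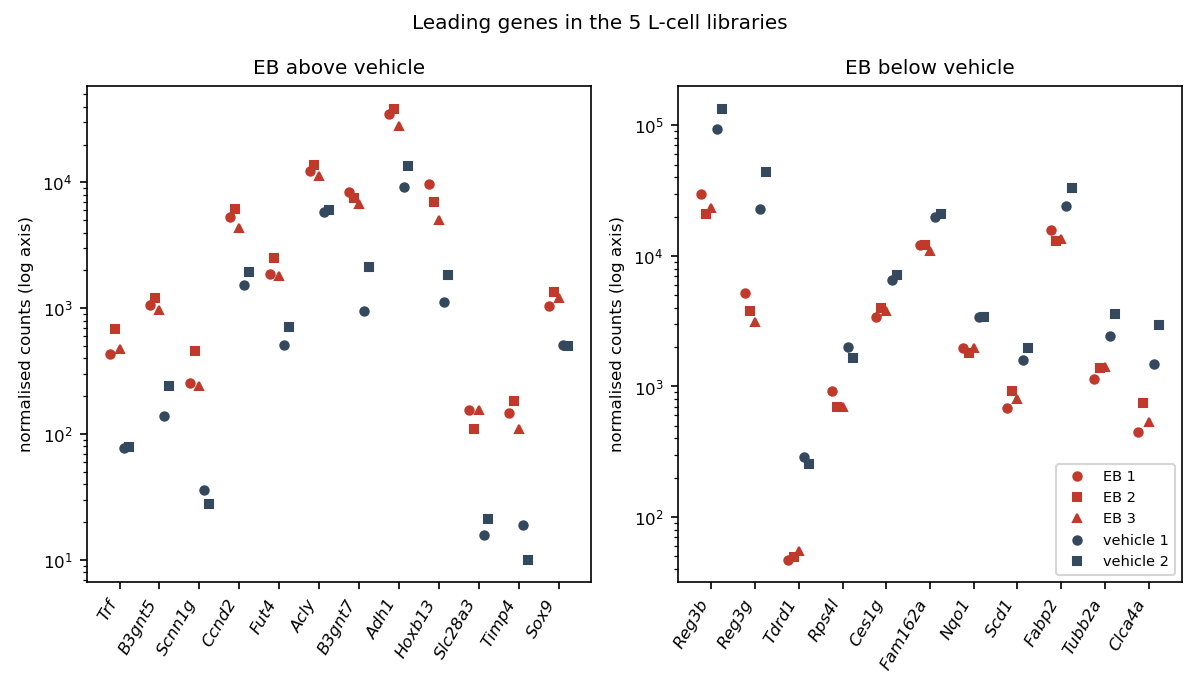
Normalised counts (log axis) of the leading genes in each of the 3 EB and 2 vehicle libraries, 1 point per library, EB left of vehicle for each gene. On the left every EB point lies above both vehicle points, and on the right under them. Trf, B3gnt5, Reg3b and Reg3g passed the test, and the other genes shown did not.

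Beyond the called genes, the leading genes were the 12 of each direction with the smallest p, a mean of at least 50 and groups that did not overlap. Of all genes tested, 14.3% had every EB library above both vehicle libraries and 14.0% had every EB library below both. The genes that follow did not pass the adjusted threshold. Scnn1g, the gamma subunit of the epithelial sodium channel, had 257, 459 and 242 in the EB libraries, against 36.2 and 28.0 in the vehicle libraries (log2 fold change 3.22 ± 0.37, adjusted p 0.0604 by limma). Ccnd2, which encodes the cell cycle regulator cyclin D2, had 5321, 6168 and 4376 with EB, against 1529 and 1933 with vehicle (log2 fold change 1.61 ± 0.18, adjusted p 0.0604, limma). Both genes were high in EB replicate 2, and for both the lowest EB library was still more than double the higher vehicle library.

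Several other genes of this group encode enzymes. Fut4, a fucosyltransferase that makes the Lewis x structure, had 1888, 2529.7 and 1793 normalised counts with EB and 513 and 715 with vehicle. B3gnt7, which extends keratan-type sugar chains, had 8423, 7567 and 6694 in the EB libraries, against 949.9 and 2138 in the vehicle libraries. Both are glycosyltransferases, as is the called B3gnt5, and their vehicle libraries were the widest apart in B3gnt7. Acly, the ATP citrate lyase that supplies acetyl-CoA for lipid synthesis, had 12409.8, 13769.8 and 11329 with EB, against 5777 and 6090.3 with vehicle. Adh1, an alcohol dehydrogenase that also oxidises retinol, had 35021, 38614 and 28189 normalised counts with EB and 9237 and 13398 with vehicle. Adh1 was among the most abundant of the leading genes, and its lowest EB library held about double the counts of the higher vehicle library. These 4 had an adjusted p of 0.0749 each by limma.

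The other leading genes on the higher side were regulators, a transporter and a protease inhibitor. Hoxb13, a homeobox gene of the tail end of the body axis, had 9676, 7035 and 5063 in the EB libraries, against 1132 and 1840.3 in the vehicle libraries (log2 fold change 2.28 ± 0.29, adjusted p 0.0784, limma). Sox9, a transcription factor of the crypt base, had 1052, 1357 and 1202 with EB, against 511 and 504 with vehicle. Its vehicle libraries were almost equal. Slc28a3, a nucleoside transporter, had 157, 110.5 and 154 normalised counts with EB and 16.0 and 21.3 with vehicle. Timp4, an inhibitor of metalloproteases, had 149, 185 and 110.2 in the EB libraries, against 19.1 and 10.1 in the vehicle libraries. The last 3 had an adjusted p of 0.0856 by limma. Exons of Ccnd2, B3gnt7, Adh1 and Timp4 overlap a gene on the opposite strand (Syn2 for Timp4, predicted genes for the rest), and whether the counting used strand is not given in the sources used here.

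On the lower side, Tdrd1, which encodes a tudor protein known from germ cells, came next after the Reg3 genes. It had 47.2, 49.8 and 55.1 with EB, against 288 and 257 with vehicle (log2 fold change -2.40 ± 0.30, adjusted p 0.0749, limma). The EB libraries lay within a few counts of each other and well under both vehicle libraries. Rps4l, annotated as a transcribed pseudogene, is a copy of a small ribosomal subunit gene. It had 927, 699 and 693 normalised counts with EB and 1988 and 1658 with vehicle. It shared 0 windows of 50 bases with Rps4x. The fourth gene by p was a predicted gene and is not named.

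Metabolic enzymes were among the other leading genes on the lower side. Ces1g, a carboxylesterase of lipid metabolism, had 3431, 3994 and 3798 in the EB libraries, against 6478 and 7193 in the vehicle libraries. Nqo1, a quinone reductase of the oxidant defence, had 1969, 1795 and 1979 with EB, against 3375 and 3380.3 with vehicle. Fam162a had 12090.2, 12073 and 10892 normalised counts with EB and 19862 and 21084 with vehicle, and one of its exons overlaps Wdr5b on the opposite strand. In these 3 genes both groups were narrow and the log2 fold changes lay between -0.87 and -0.81. Scd1, the stearoyl-CoA desaturase, had 689, 922 and 809 in the EB libraries, against 1598 and 1982 in the vehicle libraries. Fabp2, the intestinal fatty acid binding protein, had 15638, 13069 and 13434 with EB, against 24284 and 33000.3 with vehicle. Tubb2a, a beta tubulin, had 1139, 1379 and 1418 normalised counts with EB and 2441 and 3575 with vehicle. In each of these 3 genes the highest EB library was well under the lower vehicle library. Clca4a, which encodes a chloride channel accessory protein, had 447, 748 and 533 in the EB libraries, against 1492 and 2963 in the vehicle libraries, the largest difference of the last 4, and an exon of it overlaps a predicted gene on the opposite strand. Their adjusted p ran from 0.106 for Scd1 to 0.118 for the other 3 by limma.

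**Figure D2:**
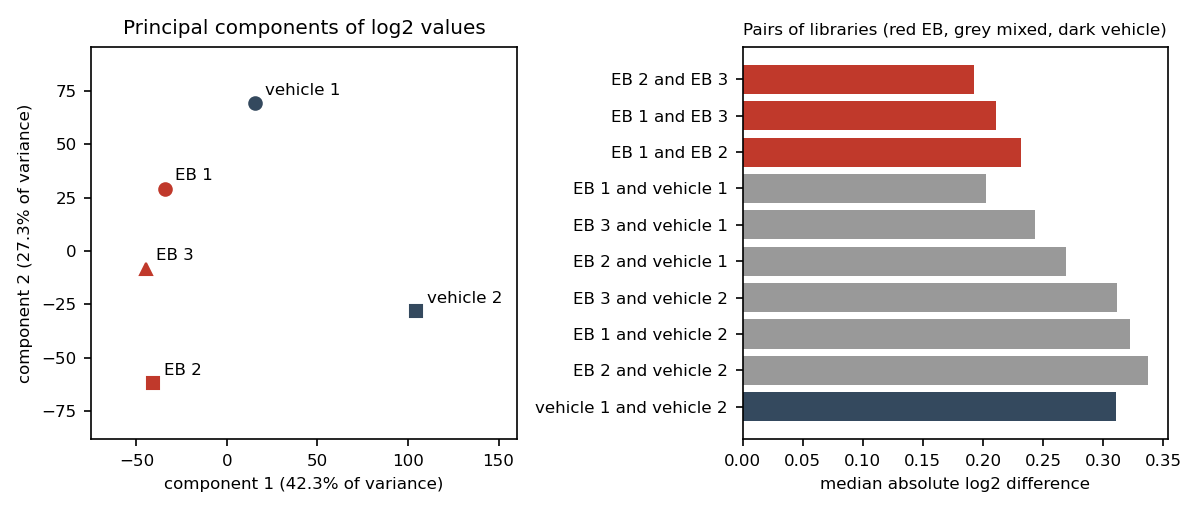
Left, the 5 libraries on the first 2 principal components of log2(value + 1), with the share of variance on each axis label. Right, the median absolute log2 difference between each pair of libraries over 11494 genes with a mean of at least 50. Vehicle replicate 2 stands far right at 104.6 on component 1, and EB replicate 1 and vehicle replicate 1 differ by less than EB replicates 1 and 2.

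Differences between libraries within a treatment were of the same order as those between treatments. The median absolute log2 difference over 11494 genes was 0.231, 0.211 and 0.193 for the 3 pairs of EB libraries, and 0.311 for the vehicle pair. Between treatments it ran from 0.203 to 0.337, and the smallest was between EB replicate 1 and vehicle replicate 1. Component 1 of the log2 values, 42.3% of the variance, set vehicle replicate 2 (104.6) apart from vehicle replicate 1 (15.5), and the EB libraries lay at -34.5, -40.6 and -45.0. Among genes with a mean of at least 50, groups were separated for many, with larger differences on the higher side: every EB library lay above for 1428 genes (median log2 fold change 0.60) and below for 1912 genes (median -0.33). Of these, 417 lay at least 2-fold higher in EB and 73 at least 2-fold lower. Without vehicle replicate 1 these counts were 661 and 239, without vehicle replicate 2 they were 569 and 147, and without an EB replicate they ran from 398 to 622 and from 92 to 103. Over all genes tested, 49.7% were higher in EB and the median log2 fold change was -0.0022.

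**Figure D3:**
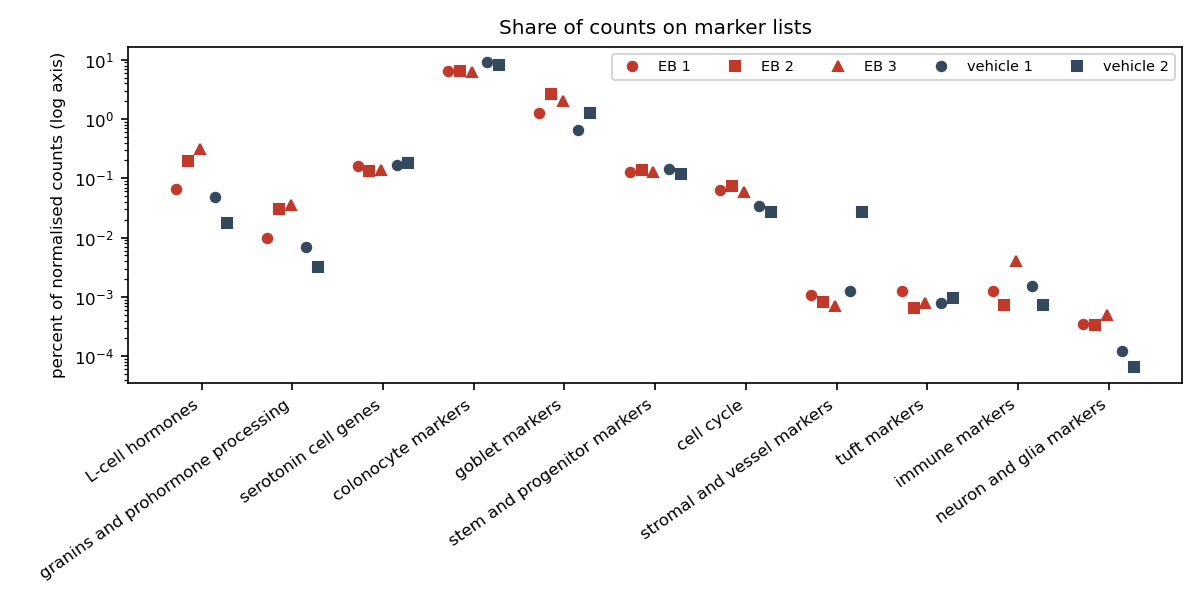
Percent of all normalised counts (log axis) on each marker list in the 3 EB and 2 vehicle libraries, 1 point per library, EB left of vehicle. L-cell hormones and granins are lowest in vehicle replicate 2, and the stromal list stands apart in that library at 0.0274%.

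Marker lists of other cell types also differed between the libraries. Goblet cell markers took 1.29, 2.65 and 2.03% in the EB libraries, against 0.653 and 1.28% in the vehicle libraries. Cell cycle genes took 0.0625, 0.0738 and 0.0591% in the EB libraries, against 0.0340 and 0.0270% in the vehicle libraries. Colonocyte markers had their highest EB share under the lower vehicle share, and cell cycle genes their lowest EB share above the higher vehicle share, whereas the goblet lists of EB replicate 1 and vehicle replicate 2 were nearly equal. Stromal and vessel markers took 0.00109, 0.000827 and 0.000712% in the EB libraries, against 0.00126 and 0.0274% in the vehicle libraries, so vehicle replicate 2 alone stood out. Tuft, immune and neuronal lists took at most 0.00396% of any library, and Gast, Tff1, Trbc2, Sox10, Hoxc4 and Hoxc5 were at 0 in every library. The exact permutation test on shares could not go below p = 0.2 with 3 against 2 libraries. The part of these mixtures in the differences between EB and vehicle was not tested.

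The L-cell hormones were mostly higher in EB than in vehicle libraries, but not evenly so. Pyy had 11159, 34191 and 47693 with EB, against 8026 and 2685 with vehicle. Gcg had 2869, 9982 and 24284 normalised counts with EB and 2399 and 2064 with vehicle. Insl5 had 165, 408 and 888 in the EB libraries, against 77.7 and 22.4 in the vehicle libraries. In all 3 genes EB replicate 3 was highest, EB replicate 1 was the lowest EB library, and vehicle replicate 2 was lowest of all. The log2 fold changes were 2.50 ± 0.63, 1.99 ± 0.73 and 3.19 ± 0.73 for Pyy, Gcg and Insl5, with adjusted p of 0.234, 0.358 and 0.218 by limma. Cck, whose promoter drives the Cre, had 81.4, 199 and 399 with EB, against 48.9 and 34.7 with vehicle. Nts (neurotensin) had 1456, 4199.9 and 5843 normalised counts with EB and 1761 and 238 with vehicle, and here vehicle replicate 1 exceeded EB replicate 1. Secretin (Sct) had 1698, 5286 and 8091 in the EB libraries, against 1540.3 and 724 in the vehicle libraries.

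Of the 7 genes of the L-cell hormone list, which also holds Ppy, all were higher on average in EB and 6 had every EB library above both vehicle libraries. None passed limma's adjusted test, 7 had an unadjusted p under 0.05 on the higher side, against 7.34% of all genes tested (11.6% in both directions, 4.22% lower), and 2 passed DESeq2. Of all 16217 genes tested DESeq2 called 522, 347 of them higher. These figures, with 14.3% of all genes separated above and 14.0% below, are the background for every list that follows. The median log2 fold change was 2.35, from 1.71 without vehicle replicate 2 to 3.29 without vehicle replicate 1. Gcg differed more than 8-fold between EB replicates 3 and 1. Of the called genes, Reg3g stood in the reverse order of Pyy over the 5 libraries, lowest in EB replicate 3 and highest in vehicle replicate 2. Reg3g and Pyy had groups separated in opposite directions, so only the order within each treatment was free. Reg3b did not share that order and was lowest in EB replicate 2.

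Other enteroendocrine hormones were read at lower counts, and their order over the EB libraries varied by gene. Somatostatin (Sst) had 220.1, 1907 and 1720.1 with EB, against 179.8 and 88.5 with vehicle. Amylin (Iapp) had 15.1, 107 and 178 normalised counts with EB and 16.0 and 5.60 with vehicle. EB replicates 2 and 3 were far above the rest for Sst and Iapp, and Iapp of EB replicate 1 lay just under vehicle replicate 1. Ghrelin (Ghrl) had 51.3, 9.06 and 35.2 in the EB libraries, against 1.06 and 6.72 in the vehicle libraries, with EB replicate 1 highest. The substance P precursor gene Tac1 had 35.2, 32.6 and 34.3 with EB, against 3.19 and 23.5 with vehicle, even across EB and split between the vehicle libraries. All 4 measured members of this list of 9 were higher in EB, with a median of 2.71. None was called by limma, 3 had an unadjusted p under 0.05 and 1 passed DESeq2. Among members below the minimum for the test, the enkephalin precursor gene Penk had 1.01, 2.72 and 0 normalised counts with EB and 6.38 and 26.9 with vehicle. The galanin gene Gal had 1.01, 0.906 and 5.42 in the EB libraries, against 84.0 and 0 in the vehicle libraries. Both had their highest value in a vehicle library.

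Genes of serotonin cells went both ways. Tph1, the enzyme that starts serotonin synthesis, had 34.2, 318 and 454 with EB, against 33.0 and 31.4 with vehicle, so EB replicates 2 and 3 stood well above vehicle and EB replicate 1 did not. The serotonin transporter Slc6a4 had 635, 517 and 351 normalised counts with EB and 249.98 and 358 with vehicle. The vesicular transporter Slc18a1 had 204, 401 and 261 in the EB libraries, against 144 and 206 in the vehicle libraries. The groups overlapped for both transporters. Maoa, a monoamine oxidase also found outside serotonin cells, had 41240.0, 34405 and 34845 with EB, against 47570.0 and 55947 with vehicle, lower in EB. Of 7 members 4 were higher and 3 lower, and none was called by limma or edgeR, with 1 passing DESeq2 and 3 at an unadjusted p under 0.05, 2 of them higher.

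Among granins and prohormone processing enzymes, Chga, Chgb and Scg2 had the largest fold changes, and the enzyme genes Pcsk1 and Pam had log2 fold changes of 0.27 ± 0.24 and 0.28 ± 0.18 (SE). Chga (chromogranin A) had 433, 2303 and 2578 normalised counts with EB and 246 and 28.0 with vehicle, a log2 fold change of 4.02 ± 0.99. Chgb (chromogranin B) had 586, 2631 and 2782 in the EB libraries, against 189 and 23.5 in the vehicle libraries, a log2 fold change of 4.57 ± 0.92 with an adjusted p of 0.183 by limma. Scg2 (secretogranin II) had 78.4, 431 and 398 with EB, against 51.1 and 4.48 with vehicle. EB replicates 2 and 3 were several-fold above EB replicate 1 in all 3 granins. Scg5, the chaperone of a prohormone convertase, had 81.4, 170.3 and 239 normalised counts with EB and 45.7 and 12.3 with vehicle. Vehicle replicate 2 was lowest in each, well under vehicle replicate 1. All 10 measured members were higher in EB and 9 had separated groups. None passed limma, 7 had an unadjusted p under 0.05, and 4 passed DESeq2. The median was 2.57, from 1.84 without vehicle replicate 2 to 3.25 without vehicle replicate 1.

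Vesicle fusion genes differed less. Snap25, a SNARE protein, had 58.3, 144 and 127 in the EB libraries, against 21.3 and 8.97 in the vehicle libraries. The granule protein Ptprn had 38.2, 88.8 and 199 with EB, against 13.8 and 10.1 with vehicle. Rab3b, a small GTPase of exocytosis, had 76.4, 149 and 80.4 normalised counts with EB and 30.8 and 22.4 with vehicle. EB replicate 1 was the lowest EB library for each. The synaptotagmin Syt13 had 68.4, 168 and 206 in the EB libraries, against 39.4 and 32.5 in the vehicle libraries. The groups were separated for 11 of the 22 measured members, these 4 among them. Of the 22, 21 were higher in EB, with a median of 0.87 (from 0.65 without vehicle replicate 1 to 1.25 without EB replicate 1). No member passed limma's adjusted test, 5 had an unadjusted p under 0.05 and 4 passed DESeq2.

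Transcription factors of the enteroendocrine lineage followed the granins. Myt1 had 33.2, 52.5 and 42.5 with EB, against 3.19 and 5.60 with vehicle. Rfx6 had 30.2, 109 and 167 normalised counts with EB and 12.8 and 2.24 with vehicle. Pax6 had 39.2, 111 and 179.8 in the EB libraries, against 19.1 and 10.1 in the vehicle libraries. EB replicate 1 lay nearest to vehicle for the last 2. St18 had 39.2, 85.1 and 75.0 with EB, against 6.38 and 19.1 with vehicle. Myt1 was even across the EB libraries, while Rfx6 and Pax6 were highest in EB replicates 2 and 3, as the hormones were. Of 18 measured members 16 were higher, 11 with separated groups, and the median was 1.89 (from 1.56 without EB replicate 3 to 2.55 without EB replicate 1). By limma none of them was called, 9 had an unadjusted p under 0.05 and 6 passed DESeq2.

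**Figure D4:**
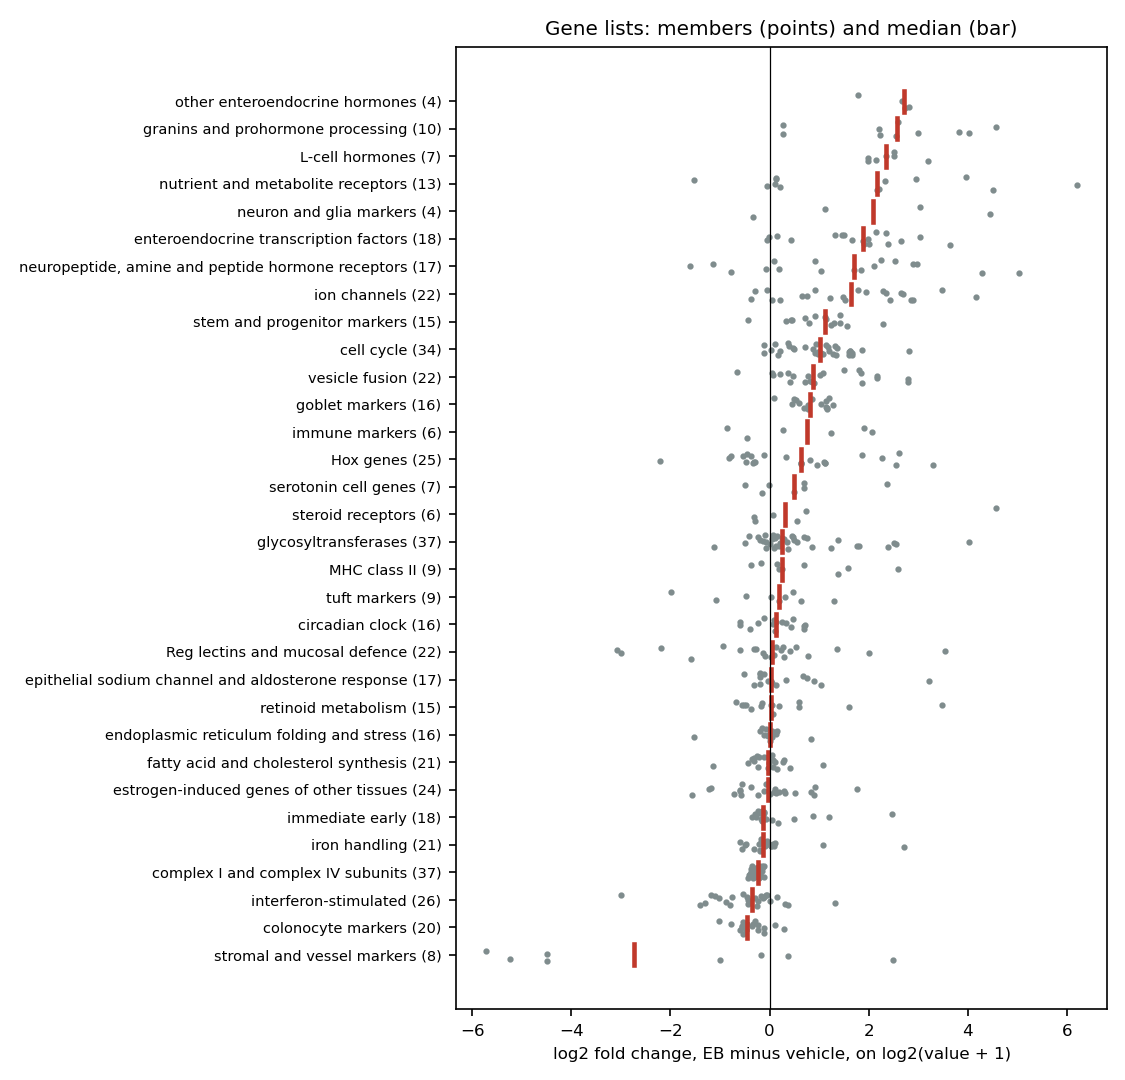
Log2 fold change, EB minus vehicle, of every measured member of the gene lists (grey points) with the list's median (red bar) and the number of measured members in brackets. The hormone and granin lists have medians above 2, the steroid receptor list one of 0.31, and the stromal list lies lowest at -2.74.

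Receptors for nutrients and metabolites ranged widely in level, and the members with separated groups were read at low counts. Olfr78, a receptor for short-chain fatty acids, had 57.3, 68.8 and 99.4 normalised counts with EB and 0 and 0 with vehicle. With 0 reads in both vehicle libraries, the EB mean was at least 45.9-fold higher than the limit of 1.64 normalised counts that 3 reads over both would give. That bound was 22.4-fold without vehicle replicate 1 and 23.6-fold without vehicle replicate 2, and the adjusted p was 0.0604 by limma. The bile acid receptor gene Gpbar1 had 21.1, 48.9 and 84.9 in the EB libraries, against 7.45 and 0 in the vehicle libraries. Gpr119, a receptor for lipid amides, had 52.3, 259 and 248 with EB, against 43.6 and 0 with vehicle. The fatty acid receptor gene Ffar1 had 15.1, 59.8 and 101 normalised counts with EB and 9.57 and 8.97 with vehicle. Vehicle replicate 2 had 0 for Gpbar1 and Gpr119, and EB replicate 1 was the lowest EB library for all 3 genes. The long-chain fatty acid receptor gene Ffar4 had 809, 1513 and 1077 in the EB libraries, against 712 and 1407 in the vehicle libraries. Ffar2, another receptor for short-chain fatty acids, had 132, 524 and 400.2 with EB, against 249.98 and 272 with vehicle. The groups overlapped for both of these more abundant genes, as for Gpr35 and Lpar5, and the log2 fold changes of the 4 ran from -0.053 for Lpar5 to 0.21 for Ffar2. Of 13 measured members 11 were higher and 4 had separated groups, with a median of 2.18 (from 0.68 without vehicle replicate 2 to 2.22 without vehicle replicate 1). At the adjusted threshold limma called none, 4 had an unadjusted p under 0.05 and 2 passed DESeq2.

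Olfr78 was 1 of 10 genes with 0 reads in both vehicle libraries and at least 10 normalised counts in each EB library. No gene had the opposite pattern, which is stricter because it needs 0 reads in 3 libraries and not in 2. Genes with any reads numbered 30040, 23661 and 28126 in the EB libraries, against 25343 and 21773 in the vehicle libraries. The part of detection in these zeros was not tested. Of the 10, 5 are predicted genes and are not named. Atp13a4, a P-type ATPase, had 19.1, 15.4 and 16.3 with EB, at least 10.3-fold above that limit. The proteoglycan Spock1 had 11.1, 58.9 and 11.7, at least 16.6-fold higher and 6.96-fold without EB replicate 2, its highest library. Ddo, the D-aspartate oxidase, had 26.1, 11.8 and 14.5, at least 10.7-fold higher. These bounds were between 5.03 and 8.53 for these 3 genes without 1 of the vehicle replicates, and their adjusted p ran from 0.222 to 0.233 by limma.

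Receptors for amines and peptides were mostly higher in EB. Htr4, a serotonin receptor, had 296, 379 and 299.9 normalised counts with EB and 76.6 and 127 with vehicle, a log2 fold change of 1.70 ± 0.29 with an adjusted p of 0.1203 by limma. Npy1r, a receptor for peptide YY and neuropeptide Y, had 54.3, 123 and 37.0 in the EB libraries, against 6.38 and 7.85 in the vehicle libraries. The somatostatin receptor gene Sstr3 had 14.1, 73.4 and 56.9 with EB, against 3.19 and 0 with vehicle. For each, every EB value was above both vehicle values. The angiotensin receptor gene Agtr1a had 40.2, 61.6 and 43.4 normalised counts with EB and 7.45 and 11.2 with vehicle. Htr4 and Agtr1a were even across the EB libraries and clear of vehicle. Of 17 measured members of 26, 13 were higher, 9 of them separated, and 1 was separated on the lower side. The median was 1.70, and it was 0.39 without EB replicate 2. None was called by limma, 9 had an unadjusted p under 0.05, 8 of them higher, and 6 passed DESeq2.

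Ion channel genes gave 15 members with every EB library above vehicle among 22 measured. Ano1, a calcium-activated chloride channel, had 5827, 4818 and 4159 in the EB libraries, against 1145 and 2669 in the vehicle libraries (adjusted p 0.218, limma). Trpm2, a cation channel gated by oxidants, had 36.2, 18.1 and 39.8 with EB, against 2.13 and 4.48 with vehicle. The potassium channel gene Kcnh2 had 37.2, 153 and 88.5 normalised counts with EB and 0 and 19.1 with vehicle. Kcnh2 was at 0 in vehicle replicate 1. Piezo2, a mechanically gated channel of serotonin cells, had 40.2, 77.9 and 84.9 in the EB libraries, against 5.32 and 24.7 in the vehicle libraries. Ano1 was abundant and differed by more than 2-fold between the vehicle libraries, and the rest were read at low counts. In all, 19 of the 22 were higher, with a median of 1.65 (from 1.45 without EB replicate 2 to 1.73 without EB replicate 1). No member passed limma's adjusted test, 14 had an unadjusted p under 0.05 on the higher side and 1 on the lower, and 2 passed DESeq2.

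The receptors for estradiol were read at low counts. Esr1 had 81.4, 54.3 and 136 with EB, against 96.8 and 33.6 with vehicle. The groups overlapped, and the log2 fold change of 0.56 ± 0.57 turned to -0.19 without vehicle replicate 2. Esr2 had 50.3, 27.2 and 8.13 normalised counts with EB and 0 and 0 with vehicle (adjusted p 0.223, limma). At 8.13 in EB replicate 3 it missed the minimum of 10 in each EB library used above for genes at 0 in vehicle. Gper1 had 9.05, 24.5 and 9.94 in the EB libraries, against 1.06 and 0 in the vehicle libraries. The progesterone receptor gene Pgr, a known estrogen target in the uterus, had 11.1, 1.81 and 5.42 with EB, against 3.19 and 1.12 with vehicle. Both were below the minimum for the test. Nr3c1, the glucocorticoid receptor, had 3237, 2773 and 2824 normalised counts with EB and 4314 and 2967 with vehicle. Esrra, an orphan relative, had 1698, 2282 and 2749 in the EB libraries, against 2636 and 2824 in the vehicle libraries. The groups overlapped for both, as they did for Esrrg, with 39.2, 115 and 86.7 with EB, against 29.8 and 62.8 with vehicle. Of 6 measured members of the list 4 were higher, 1 of them (Esr2) with separated groups. None was called by limma, and Esr2 alone had an unadjusted p under 0.05 and passed DESeq2. The list's median of 0.31 turned to -0.11 without vehicle replicate 2 and to -0.0056 without EB replicate 1.

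Genes that estradiol induces in other tissues were split evenly. Greb1, a cofactor of the estrogen receptor in breast cells, had 84.4, 139 and 115 normalised counts with EB and 67.0 and 56.0 with vehicle, a log2 fold change of 0.84 ± 0.35 with an adjusted p of 0.426 by limma. Celsr2 had 31.2, 97.8 and 47.0 in the EB libraries, against 10.6 and 20.2 in the vehicle libraries. Padi2, which citrullinates arginine, had 379, 519.9 and 725 with EB, against 840.4 and 871 with vehicle. Every EB library of Padi2 was below both vehicle libraries. Sgk3, a kinase, had 50.3, 90.6 and 92.2 normalised counts with EB and 56.4 and 28.0 with vehicle with overlapping groups. Of 24 measured members of 32, 12 were higher and 12 lower, the median was -0.04 (from -0.17 without vehicle replicate 1 to 0.12 without vehicle replicate 2), and 2 were separated above and 4 below. None was called by limma or DESeq2, and 3 had an unadjusted p under 0.05, 2 of them higher. Of all genes tested, 14.3% were separated above, 14.0% below, and 11.6% had an unadjusted p under 0.05.

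Around Reg3b and Reg3g, the other genes of mucosal defence went both ways. Reg4, a lectin of enteroendocrine and goblet cells, had 11809.7, 54749 and 33415 in the EB libraries, against 5092 and 9364 in the vehicle libraries. Lyz1, the lysozyme of Paneth cells, had 69.4, 106 and 35.2 with EB, against 13.8 and 1.12 with vehicle. Both were separated on the higher side, opposite to the called Reg3 genes. Reg3a had 76.4, 29.0 and 47.0 normalised counts with EB and 77.7 and 264.5 with vehicle. It was separated on the lower side, with EB replicate 1 just under vehicle replicate 1. Over the list 4 members were separated above and 5 below, Reg3b and Reg3g among the 5. Of 22 measured members of 26, 12 were higher and 10 lower, with a median of 0.06 that ran from -0.21 without vehicle replicate 1 to 0.25 without vehicle replicate 2 and was -0.056 under quantile normalisation. Both called members fell, and at an unadjusted p under 0.05 there were 2 higher and 5 lower.

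Iron genes other than Trf went both ways. The ferritin chains were lower in EB: Ftl1 had 121583, 113237 and 116720.0 normalised counts with EB and 157503 and 172810.0 with vehicle. Fth1 had 184457, 179410.0 and 209116 in the EB libraries, against 246631 and 316530.0 in the vehicle libraries. The metalloreductase gene Steap2 had 212, 175 and 136 with EB, against 106 and 60.5 with vehicle, higher in EB. Their adjusted p ran from 0.291 to 0.330 by limma. Of 21 measured members of 24, 14 were lower, with a median of -0.13, and 1, Trf, was called. At an unadjusted p under 0.05 there were 2 higher and 2 lower, and DESeq2 called Trf higher and both ferritin chains lower.

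Of the glycosyltransferases, B3gnt5 was called, and Fut4, B3gnt7 and Gcnt1 came next. Gcnt1, which makes core 2 branches on O-linked sugars, had 728, 927 and 784 normalised counts with EB and 288 and 334 with vehicle, a log2 fold change of 1.38 ± 0.19 with an adjusted p of 0.0856 by limma. Its groups were narrow and wide apart. Of 37 measured members of 38, 28 were higher and 13 had every EB library above vehicle, 3 below, with a median of 0.25. At an unadjusted p under 0.05 there were 11 higher and 3 lower, and 7 passed DESeq2, all higher.

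The subunits of the epithelial sodium channel had fold changes of different size. Beside Scnn1g, the beta subunit gene Scnn1b had 414, 677 and 489 in the EB libraries, against 238 and 318 in the vehicle libraries. The alpha subunit gene Scnn1a had 901, 1339.6 and 1230.5 with EB, against 456 and 992 with vehicle. Only the alpha subunit had overlapping groups, with vehicle replicate 2 above EB replicate 1. Per1, a clock gene that aldosterone induces in the kidney, had 200.03, 276 and 311 normalised counts with EB and 99.99 and 157 with vehicle. Of 17 members, all measured, 9 were higher and 8 lower, with a median of 0.02, close to that of all genes. At the adjusted threshold limma called none, 4 had an unadjusted p under 0.05 and 1, Scnn1g, passed DESeq2.

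Markers of absorptive colonocytes were mostly lower in EB. Car1, carbonic anhydrase 1 and the most abundant of them, had 949358, 1060760.0 and 890764 in the EB libraries, against 1800750.0 and 1500130.0 in the vehicle libraries. Tmigd1, an adhesion protein, had 6988, 5559 and 6125 with EB, against 8923 and 9948 with vehicle. Emp1 had 18384, 14871 and 21219 normalised counts with EB and 23472 and 29181 with vehicle. Of 20 members 18 were lower, 10 with every EB library below both vehicle libraries, and the median was -0.46 (from -0.63 without vehicle replicate 1 to -0.25 without vehicle replicate 2). None was called by limma, 8 had an unadjusted p under 0.05 and 3 passed DESeq2.

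Goblet cell markers were all higher on average in EB, 16 of 16. Clca1, a secreted protein of mucus, had 189436, 347979 and 254346 in the EB libraries, against 79953 and 156480.0 in the vehicle libraries. Bcas1 had 3424, 8723 and 5188 with EB, against 1738 and 3286 with vehicle. The mucus peptide gene Spink4 had 10619, 30169 and 15811 normalised counts with EB and 6122 and 9844 with vehicle. The groups were separated for these 3. Ramp1, a receptor activity modifying protein, had 2959, 8858 and 5702 in the EB libraries, against 1721 and 3288 in the vehicle libraries, with EB replicate 1 under vehicle replicate 2. EB replicate 2 was highest for each of these genes. The median was 0.81, from 0.43 without vehicle replicate 1 to 1.28 without vehicle replicate 2, and 5 had separated groups. No member passed limma's adjusted test, 7 had an unadjusted p under 0.05 and 1 passed DESeq2.

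Most stem and progenitor markers were higher in EB by their fold changes, but their summed share was not. They took 0.126, 0.138 and 0.1296% in the EB libraries, against 0.145 and 0.121% in the vehicle libraries, with overlapping groups. Most of that share was Prom1, a membrane protein of the epithelium, which had 29202, 27064 and 27887 with EB, against 39951 and 35702 with vehicle, lower in every EB library. Smoc2, a marker of crypt stem cells, had 602, 885 and 548 normalised counts with EB and 101 and 180.4 with vehicle, a log2 fold change of 2.29 ± 0.32 with an adjusted p of 0.0856 by limma. Slc12a2, a chloride cotransporter of the crypt, had 1513, 3693 and 2026 in the EB libraries, against 1029 and 800.2 in the vehicle libraries. Lrig1, a brake on growth factor receptors, had 317, 491 and 437 with EB, against 205 and 226 with vehicle. Together with Sox9, 14 of 15 measured members were higher, 9 of them separated, with a median of 1.12. By limma none of them was called, 6 had an unadjusted p under 0.05 on the higher side and 1 on the lower, and DESeq2 called 4 higher and 1 lower.

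Of 34 cell cycle genes 32 were higher and 25 had every EB library above both vehicle libraries, against 14.3% of all genes. Stmn1, a microtubule regulator, had 948, 1027 and 855 normalised counts with EB and 519 and 461 with vehicle. Cenpa, the centromeric histone, had 224, 249 and 218 in the EB libraries, against 101 and 51.6 in the vehicle libraries. The replication helicase gene Mcm5 had 270.4, 565 and 415 with EB, against 149 and 79.6 with vehicle. Each EB library was above the higher vehicle library by more than 1.6-fold in these 3 genes. The list's median was 1.02 (from 0.64 without vehicle replicate 2 to 1.31 without vehicle replicate 1). At the adjusted threshold limma called none, 24 had an unadjusted p under 0.05 and 13 passed DESeq2, all higher.

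Rarer cell types gave low counts. Among tuft cell genes Sh2d6 had 18.1, 7.25 and 9.94 normalised counts with EB and 41.5 and 52.7 with vehicle, and Trpm5, Dclk1 and Ptgs1 had overlapping groups, with 2.13 and 50.4 normalised counts of Ptgs1 in the 2 vehicle libraries. Of 9 measured tuft genes 6 were higher (4 under quantile normalisation), 2 were separated on the lower side and none was called by limma or DESeq2, with 1 at an unadjusted p under 0.05. The pan-leukocyte gene Ptprc had 29.1, 3.62 and 97.6 in the EB libraries, against 6.38 and 4.48 in the vehicle libraries. The T-cell gene Cd3e had 6.03, 11.8 and 39.8 with EB, against 5.32 and 1.12 with vehicle, with EB replicate 3 highest for both. Of 6 measured immune genes 4 were higher and none was called by limma or DESeq2 or had an unadjusted p under 0.05. The collagen genes marked vehicle replicate 2: Col3a1 had 22.1, 5.43 and 17.2 normalised counts with EB and 121 and 4458 with vehicle. Col1a1 had 6.03, 22.6 and 5.42 in the EB libraries, against 38.3 and 1338 in the vehicle libraries. Col1a2 had 17.1, 0 and 11.7 with EB, against 38.3 and 1361 with vehicle, so vehicle replicate 2 exceeded every other library by far for all 3 collagens. The vessel gene Vwf had 64.3, 90.6 and 49.7 normalised counts with EB and 10.6 and 11.2 with vehicle, higher in EB. Of 8 measured stromal and vessel genes 6 were lower, 4 of them separated, none was called by limma, 1 higher and 4 lower had an unadjusted p under 0.05, and DESeq2 called 1 higher and 3 lower. The neuronal gene Uchl1 had 22.1, 48.9 and 66.0 in the EB libraries, against 11.7 and 1.12 in the vehicle libraries. Elavl4, another neuronal gene, had 7.04, 13.6 and 11.7 with EB, against 5.32 and 3.36 with vehicle. Of the glial genes, Sox10 was at 0 throughout. In all, 3 of 4 measured neuron and glia genes were higher, none called by limma, 2 with an unadjusted p under 0.05 and 1 by DESeq2.

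**Figure D5:**
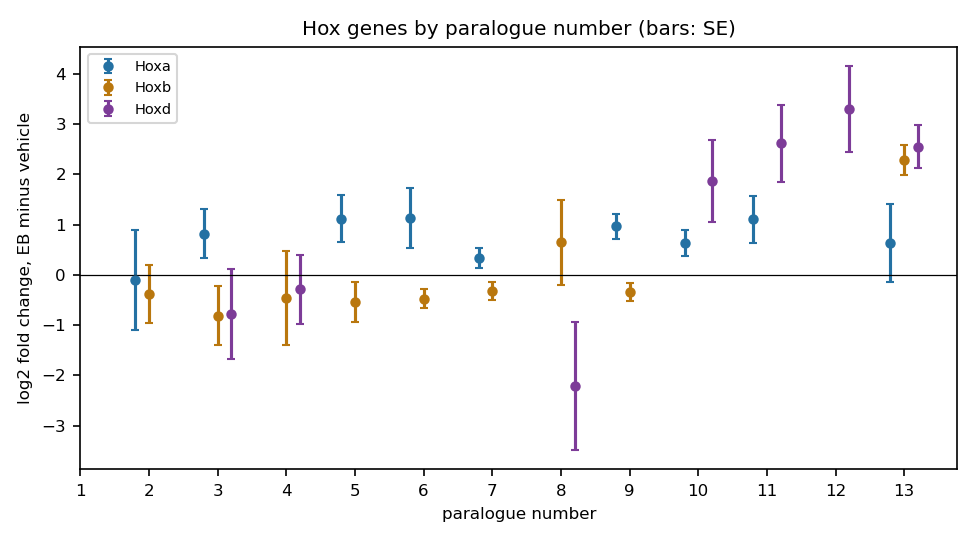
Log2 fold change, EB minus vehicle, with SE bars for the 25 measured Hox genes by paralogue number, coloured by cluster. All 8 points at numbers 10 to 13 lie above 0, and those at 1 to 9 lie on both sides with Hoxb and Hoxd mostly below.

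Hox genes carry the position of a cell along the body axis, with high paralogue numbers toward the tail. Beside Hoxb13, the Hoxd cluster had its end genes higher in EB: Hoxd13 had 341, 504 and 218 normalised counts with EB and 41.5 and 76.2 with vehicle. Hoxd12 had 216, 264 and 94.9 in the EB libraries, against 5.32 and 50.4 in the vehicle libraries. Hoxd11 had 84.4, 40.8 and 26.2 with EB, against 3.19 and 12.3 with vehicle. The 3 genes were lowest in vehicle replicate 1, and EB replicate 3 was the lowest EB library in each. Hoxd10 had 123, 61.6 and 19.9 normalised counts with EB and 8.51 and 22.4 with vehicle, with EB replicate 3 under vehicle replicate 2. All 8 measured genes of paralogues 10 to 13 (of 12) were higher and 6 were separated, with a median log2 fold change of 2.07 that ran from 1.56 without vehicle replicate 1 to 2.57 without vehicle replicate 2.

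Paralogues 1 to 9 did not share that direction. Of 17 measured genes (of 27) 6 were higher and 11 lower, with a median of -0.31 that was 0.036 without vehicle replicate 1. By cluster, 5 of 6 Hoxa genes were higher, 7 of 8 Hoxb genes lower and all 3 Hoxd genes lower. Hoxa9 had 276, 221 and 229 in the EB libraries, against 131 and 115 in the vehicle libraries. Hoxb9 had 571, 533 and 647 with EB, against 697 and 776 with vehicle. In both, the groups did not overlap, and the directions were opposite. Hoxb6 had 351, 322 and 356 normalised counts with EB and 511 and 442 with vehicle, lower in every EB library. No Hox gene was called by limma, 8 had an unadjusted p under 0.05 on the higher side and 1 on the lower, and 4 passed DESeq2.

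Genes of the respiratory chain differed little but evenly by their fold changes, while their summed share overlapped between the groups. All 37 subunits of complexes I and IV were lower on average in EB, 26 with every EB library below both vehicle libraries, against 14.0% of all genes. Ndufs5 had 2721, 2389 and 2586 in the EB libraries, against 3359 and 3379 in the vehicle libraries. Ndufs4 had 2973, 2489 and 2537 with EB, against 3308 and 3881 with vehicle. Cox4i1 had 48758, 41540.3 and 44909.9 normalised counts with EB and 57661 and 61909.7 with vehicle. The differences were small for each gene, with a median log2 fold change of -0.24 over the list. Under quantile normalisation the median was -0.11 and 3 of the 37 were higher. The list took 1.34, 1.14 and 1.17% of all normalised counts in the EB libraries, against 1.38 and 1.28% in the vehicle libraries. EB replicate 1 thus lay above vehicle replicate 2. The total of normalised counts was higher in both vehicle libraries than in any EB library. None was called by limma or DESeq2, and 12 had an unadjusted p under 0.05.

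Interferon-stimulated genes leaned lower as well. Ifit3 had 156, 153 and 125 in the EB libraries, against 248 and 282 in the vehicle libraries. Isg15 had 129, 79.7 and 77.7 with EB, against 151 and 239 with vehicle. Oas3 had 89.5, 136 and 110.2 normalised counts with EB and 151 and 369.9 with vehicle. All 3 had every EB library below both vehicle libraries. Gbp7, a guanylate-binding protein, had 147, 389 and 224 in the EB libraries, against 95.7 and 89.7 in the vehicle libraries, higher in EB. Of 26 members 21 were lower, 7 with separated groups, and the median was -0.36 (from -0.67 without vehicle replicate 1 to -0.10 without vehicle replicate 2). No member passed limma's adjusted test, 6 had an unadjusted p under 0.05 on the lower side and 1 on the higher, and 1 passed DESeq2, on the higher side. For class II antigen presentation 7 of 9 measured genes were higher. H2-DMb1, a peptide loading chaperone, had 51.3, 149 and 118 with EB, against 28.7 and 46.0 with vehicle. H2-Ab1, a class II chain, had 426, 749 and 844 normalised counts with EB and 335 and 469.6 with vehicle, with overlapping groups. None of the 9 was called by limma or DESeq2, with 1 at an unadjusted p under 0.05.

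Genes of retinoid metabolism split. Adh1 was higher, as given above, and Aldh1a1, which makes retinoic acid, had 7174, 5878 and 6585 in the EB libraries, against 9307 and 9457 in the vehicle libraries. Dhrs3, which turns retinal back to retinol, had 1023, 1150.3 and 1091 with EB, against 1504 and 1715 with vehicle. Isx, a homeobox gene that retinoic acid induces in the small intestine, had 5302, 4938 and 6297 normalised counts with EB and 7269.7 and 10519.7 with vehicle. These 3 were separated on the lower side. Of 15 measured members 8 were higher and 7 lower, none was called by limma, and DESeq2 called 2 higher and 3 lower, as many as had an unadjusted p under 0.05.

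Lipid synthesis genes other than Acly and Scd1 were split too. Elovl6, which elongates fatty acids, had 2202, 2664 and 2253 in the EB libraries, against 2882 and 3564 in the vehicle libraries. Of 21 members 9 were higher and 12 lower, with a median of -0.03 that ran from -0.47 without vehicle replicate 1 to 0.43 without vehicle replicate 2 and was 0.11 under quantile normalisation. By limma none of them was called, 1 higher and 2 lower had an unadjusted p under 0.05, and DESeq2 called 1 in each direction.

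Stress and clock genes had medians near that of all genes. Among immediate early genes Myc had 431, 614 and 577 with EB, against 268 and 317 with vehicle, with separated groups. Nr4a1 had 953, 3886 and 3682 normalised counts with EB and 764 and 1429 with vehicle, with vehicle replicate 2 above EB replicate 1. Their list (18 genes) had a median of -0.12 that ran from -0.40 without vehicle replicate 1 to 0.31 without vehicle replicate 2 and was 0.019 under quantile normalisation. Herpud1, of the endoplasmic reticulum stress response, had 5237, 9424 and 6798 in the EB libraries, against 3571 and 4251 in the vehicle libraries, and the other 15 genes of that list gave a median of 0.01 with it. The clock gene Per2 had 441, 382 and 384 with EB, against 234 and 262 with vehicle. Arntl, its activator, had 1131, 755 and 953 normalised counts with EB and 1102 and 1816 with vehicle, overlapping. Of 16 measured clock genes 11 were higher, with a median of 0.12. None of these 3 lists had a gene called by limma. At an unadjusted p under 0.05 they had 1, 1 and 3 genes, and by DESeq2 1, 1 and 0.

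The EC-cell libraries, 4 with EB and 2 with vehicle, allowed a test of whether EB differed from vehicle by another amount in L-cell libraries. They were normalised on their own, held from 4955808 to 10640921 reads, and a time after treatment is stated for L cells only. Over 13802 genes kept in that fit, 0 differed between the cell labels at an adjusted p under 0.05 by limma (0.0% of those tested), and 630 had an unadjusted p under 0.05 (4.56%). Without vehicle replicate 1 of the EC-cell libraries, 270 genes passed. Olfr78 had the smallest p: in EC-cell libraries it had 736, 735, 2074 and 2114 with EB, against 1763 and 1899 with vehicle, where the groups overlapped, and the difference of log2 fold changes was 6.77 ± 0.93 (SE, adjusted p 0.217, limma), a size that depends on the added 1 because the L-cell vehicle libraries were at 0. The next smallest p were those of Pla2g3 and Pigq. Pla2g3, a secreted phospholipase, had 398, 355 and 280.1 in the EB libraries, against 486 and 770.0 in the vehicle libraries of the L-cell label. In EC-cell libraries it had 129, 239.8, 57.0 and 41.6 with EB and was at 0 in both vehicle libraries. All L-cell libraries held Pla2g3 reads, the EB libraries fewer. Pigq, of glycolipid anchor synthesis, had 2526, 3049 and 3069.9 with EB, against 2762 and 3042 with vehicle of the L-cell label, with no clear difference. In EC-cell libraries Pigq had 549, 381, 382 and 376 with EB, against 100.5 and 81.6 with vehicle.

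None of the 4 called genes differed between the cell labels at the adjusted threshold. In EC-cell libraries Reg3b had 58251, 66496, 21612 and 4839 with EB, against 6053 and 2954 with vehicle, a log2 fold change of 2.58. Reg3g had 15966, 15990.5, 4557 and 772 with EB, against 1419 and 702 with vehicle. In both genes EB replicates 1 to 3 of the EC-cell libraries lay above vehicle and EB replicate 4 did not. The difference between cell labels was -4.78 ± 1.26 for Reg3b and -5.45 ± 1.46 for Reg3g on the log2 scale, with adjusted p of 0.862 for each by limma. Trf and B3gnt5 were scattered in EC-cell libraries: Trf had 4.21, 1.30, 103 and 194 with EB, against 24.999 and 1.10 with vehicle. B3gnt5 had 1.40, 16.9, 121 and 0 with EB, against 90.7 and 0 with vehicle. Their differences between cell labels were 1.14 ± 2.54 and 2.72 ± 2.89 (adjusted p 0.939 and 0.872, limma). Pyy, which had a log2 fold change of 2.50 ± 0.63 in L-cell libraries, had -1.27 in EC-cell libraries, a difference of 3.77 ± 1.39 (adjusted p 0.862, limma). Its EC-cell values were 6376, 3607, 20955 and 4353 with EB, against 5453 and 48565 with vehicle. The groups overlapped, with vehicle replicate 1 inside the EB range and vehicle replicate 2 above every other EC-cell library.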

How the data were processed

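Polyadenylated RNA of isolated colon cells was amplified as full-length cDNA with a SMART-Seq kit and tagmented, per the labels' protocols. The submitters' processing notes name STAR, featureCounts, DESeq2 and mm10, without versions or roles. The deposited values are a signal, normalised counts per gene, in 1 table for each cell label. They were whole multiples of 1 step per library (100% of values above 0, within 0.001 of a read), so the reads counted could be recovered. Size factors of the L-cell libraries ran from 0.892 to 1.11.

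A gene was kept where at least 2 of the 5 libraries reached a value of 10, which left 16217 of 49997. The test was limma 3.58.1 (R 4.3.3) with a trend on log2(value + 1), and a Benjamini-Hochberg adjusted p under 0.05 made a call. Each fit that left out a library applied the filter anew. The contrast between cell labels used all 11 libraries. Coordinates are those of GRCm38. Simulated data for EB minus vehicle (15548 genes) gave back 100% of 100 genes with a change of 2 log2 units and 100% of 100 with a change of 4, with 15 false calls. In the libraries themselves Chgb, at 4.57 ± 0.92 (SE), and Pyy, at 2.50 ± 0.63, were not called. The simulation therefore does not show that differences of these sizes are always called here.

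The genes named are those called, the 12 of each direction with the smallest p (mean of at least 50, groups not overlapping), a set of hormone and receptor genes, up to 4 per list by p, and the 3 smallest p of the contrast between cell labels. Predicted genes were counted, not named, and a few genes that the rule picks are not reported here. Genes at 0 in vehicle, Hox genes beyond 4, and Penk, Gal, Pcsk1, Pam, Ffar2, Ffar4, Gpr35, Lpar5, Prom1 and Reg3a were added after their values were seen. The 32 lists and the comparison were chosen with earlier results of these data known. Other settings tried were pseudocounts of 0.5 and 4, the filter at 50 or left out, quantile normalisation, TMM factors, DESeq2 1.42.0 and edgeR 4.0.16 given the recovered reads and the deposited size factors, a replicate block, and each library left out. Floors of 3 reads cover counting error only.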

Additional observations from a re-analysis of the deposited data

How the results depend on the processing

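With 3 EB and 2 vehicle libraries, the number of called genes depended on the setting more than the fold changes of the called genes did. Against 4 called genes by limma, leaving out the filter gave 139, quantile normalisation 15, DESeq2 522, and edgeR 0, with 1849 at an unadjusted p under 0.05. Leaving out 1 library gave from 0 genes (any EB replicate) to 92 (vehicle replicate 1), with 53 for vehicle replicate 2. The count at an unadjusted p under 0.05 ran from 1138 to 3157 in those fits, and the count for the contrast between cell labels from 0 to 270. The cause of these shifts was not tested.

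Replicate numbers in the labels were tried as a block, which gave 56 called genes. Same-numbered libraries correlated at 0.157 and 0.148 in their deviations over 2 pairs, too few to take the numbers as pairing.

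Some genes that were not called changed direction. With 1 library left out, Esr1 ran from -0.19 to 1.31, Ptgs1 from -0.72 to 3.32, Ddit3 from -0.50 to 0.12 and Pigq from -0.084 to 0.078 on the log2 scale. Pigq was also 0.0032 with TMM factors and 0.076 with quantile normalisation. The contrast between cell labels ran from -0.54 to 5.98 for B3gnt5 and from -0.68 to 2.95 for Trf, negative without vehicle replicate 1 of the EC-cell libraries. Car1 had no difference after quantile normalisation. That setting gives genes of equal rank the same value, so it cannot test a gene that holds the same rank in every library. The cause of the other changes was not tested.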
